A study of Cynodon dactylon with 6 samples.

Results

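Heat-stable abundant transcripts of bermudagrass leaves are described here: 385 of 111743 unigenes whose scaled read counts stayed high and nearly level before and during heat. Bermudagrass (Cynodon dactylon) is a warm-season turf and forage grass, and a unigene is a gene-level unit of assembled transcripts. Wild-type seedlings, 10 days old, gave leaves at 0 h without heat (control), after 2 h at 42 °C and after 12 h at 42 °C, with 2 RNA sequencing libraries a group. All 3 groups share the WT label, the labels do not say whether replicates came from separate plants or pools, and no unheated leaves from 2 h or 12 h were analysed here, so heating time and sampling time cannot be told apart. The p-values given therefore measure the spread between these libraries, which may be technical.

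A member was chosen by its count divided by the library's size factor, a scaled count called N here. The size factor is the median, over the 18038 unigenes with at least 10 reads in all 6 libraries, of the count relative to the unigene's geometric mean. A unigene was taken when its lowest N among the 6 libraries was at least 400 and its highest N was at most 35% above its lowest. The highest N over the lowest is called the N ratio. Of the 2198 unigenes that reached the floor of 400, 385 also kept within the ratio, 17.5% of these abundant unigenes and 0.345% of all. Every library entered this choice, so the even levels of the members are a description of the set and carry no test.

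When leaves are heated, heat shock factors switch on chaperone genes, while many transcripts of growth and photosynthesis are lowered. Sequencing counts show the share of each transcript among the RNA sampled, not its number per cell. Transcripts with a steady level are used as internal references, and their apparent steadiness follows from the scale on which libraries are compared. In a whole leaf, fewer cells of a type and less RNA per cell cannot be told apart. Neither gene names nor sequences come with the unigene IDs, so roles of the members, families commonly used as references and leaf marker genes could not be looked up, and no sequence is shown.

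The libraries held 6313500 to 9326725 assigned reads. The lowest count of any member was 280 reads, in control replicate 2, the smallest library, and the counting error of a member in its lowest library was 1.181% to 5.98% of its count (median 4.60%). Replicates of a group differed little in the members: the median size of the log2 difference in N between replicates was 0.073 in the controls, 0.079 at 2 h and 0.083 at 12 h. These differences are part of what the rule limited.

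The members lay mostly in the lower part of the abundant range. Mean N over the 6 libraries was 424 at the lowest, 685 at the median and 10308 at the highest, and 94 members averaged 1000 or more. In the 1813 abundant unigenes outside the limit the median of mean N was 1089, where a wider ratio also lifts the mean above the lowest N. Only 2 were among the 100 unigenes with the highest mean N, 62 among the first 1000 and 185 among the first 2000. The share of abundant unigenes that kept within the ratio was 18.9% where the lowest N was 400 to 800 (264 of 1399) and 17.7% from 800 to 1600 (97 of 547). It was 10.98% from 1600 to 3200 (19 of 173) and 6.33% at 3200 or more (5 of 79). The share was lowest among the most abundant, on the same scale that defined the set. The median ratio of highest to lowest N was 1.2495 in the members and 2.12 in the 1813 abundant unigenes outside the limit.

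**Figure D1:**
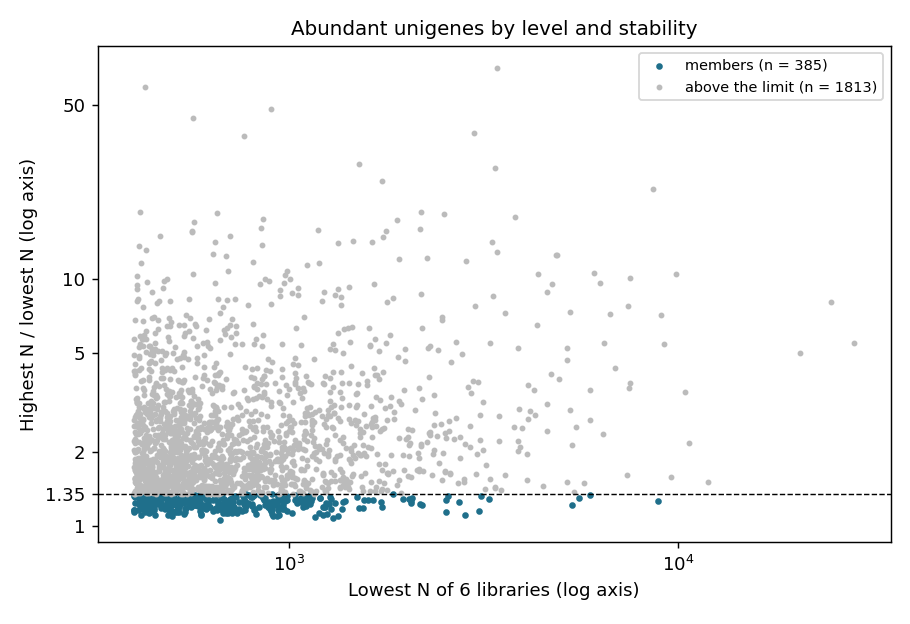
Each point is an abundant unigene, with its lowest N among 6 libraries on the horizontal axis and its highest N over its lowest N on the vertical axis, both on log axes. The dashed line is the ratio limit, 35% above the lowest N, with the 385 members at or below it and the other 1813 above it, up to a ratio of 70.4.

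The most abundant member, c69435_g2, had an N of 9862 and 10302 in the control libraries. Heated leaves had 11253 and 10735 at 2 h, and 10783 and 8914 at 12 h. Its 2 h values lay above both controls, while its 12 h values lay on either side of them. The next, c90171_g4, had 5957 and 6220 in control leaves, 7181 and 7002 at 2 h, and 7967 and 7695 at 12 h. Its groups did not overlap and stood in the order control, 2 h, 12 h, within a ratio of 1.34.

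The most even member was c94693_g1, with a highest N 1.06 times its lowest. It had an N of 691 and 669 in control leaves, 708 and 693 at 2 h, and 665 and 689 at 12 h. Its variance over the libraries was 0.365 times the variance that counting alone would give. For c94423_g1, with a ratio of 1.08, N was 1398 and 1298 in control leaves, 1343 and 1356 at 2 h, and 1407 and 1326 at 12 h. For c95407_g1, with a ratio of 1.09, it was 1268 and 1231 in control leaves, 1185 and 1214 at 2 h, and 1268 and 1165 at 12 h. In c94423_g1 every pair of groups overlapped. In c94693_g1 the 2 h values lay just above both controls and both 12 h values, and in c95407_g1 they lay below both controls, while the other pairs of groups overlapped. Over all members the variance was 5.40 times the counting variance at the median, with 40 members at or under 2 times, so most were level within the limit but not as even as counting error would allow.

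The limits cut through a continuous range. The members nearest the ratio limit were c83053_g1 with an N ratio of 1.3499 and c87460_g1 with 1.3498, and the nearest outside it were c84889_g1 with 1.3501 and c76145_g1 with 1.3505. From 30% to 35% above the lowest N there were 108 abundant unigenes, and from 35% to 40% there were 90. At the floor, member c79215_g1 had a lowest N of 400.3 and c90149_g1, just below the floor and within the ratio, had 399.4. Between 400 and 450 lay 68 members, and 67 unigenes within the ratio had a lowest N from 350 to 400. With any 1 library left out of the rule, 431 to 456 unigenes passed on the other 5, and 84.4% to 89.3% of them also passed with the library that had been left out.

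The libraries in which members were highest or lowest were spread over all groups. The highest N fell in control replicate 1 for 100 members and control replicate 2 for 66, in the 2 h libraries for 61 and 42, and in the 12 h libraries for 83 and 33. The lowest N fell in the controls for 47 and 60 members, at 2 h for 62 and 69, and at 12 h for 51 and 96. The median N of the members was 692 ± 9.23 in control leaves, 685 ± 0.636 at 2 h and 694 ± 15.8 at 12 h (SD, n = 2 each).

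Small ordered differences between groups remained inside the limit. Both 2 h libraries were above both controls in N for 96 members and below both for 147, while 142 overlapped. Of the 25828 unigenes that passed a filter on low counts, 32.7% had both 2 h libraries above both controls and 32.6% below. Both 12 h libraries were above both controls for 114 members and below for 146, against 44.3% above and 33.9% below among the 25828. Between the heated groups both 12 h libraries were above both 2 h libraries for 121 members and below for 111, against 40.4% above and 33.3% below. The rule used these libraries, so nothing is read from the members' counts beside these shares. The median size of the log2 difference of group means was 0.129 for 2 h and control, 0.143 for 12 h and control, and 0.127 for 12 h and 2 h. With 2 libraries against 2, the smallest p of a two-sided exact permutation test is 0.333, so no single member could be tested in that way.

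A model over all unigenes placed these differences beside the rest of the transcriptome. The call was an adjusted p below 0.05 in edgeR's quasi-likelihood test with TMM scaling (trimmed mean of M-values), over the same 25828 unigenes, among them all 385 members. After 2 h, 26 members were called, 7 higher and 19 lower, against 28.7% of all unigenes tested, 14.3% higher and 14.4% lower. The members' count was 9 without a filter and 0 with DESeq2 (26 at an unadjusted p below 0.05). It was also 0 without control replicate 1, control replicate 2 or 2 h replicate 2, and 1 without 2 h replicate 1. After 12 h, 63 were called, 12 higher and 51 lower, against 52.0% of all, 27.6% higher and 24.4% lower. The members' count was 32 without a filter, 36 with DESeq2, 9 without control replicate 1, 9 without control replicate 2, and 29 and 25 without 12 h replicate 1 and 2. Between 12 h and 2 h, 30 were called, 11 higher and 19 lower, against 45.7% of all, 22.9% higher and 22.8% lower. The members' count was 10 with DESeq2 and 5 to 17 with any 1 of the 6 libraries left out. Over all unigenes, 7762, 14195 and 12127 of 88871 were called in the 3 comparisons without a filter. With DESeq2 5258, 10463 and 8759 of 25828 were called. Because the rule used these libraries, nothing is read from the members' counts falling below the background. The balance also moved with the scaling. With the size factors of the rule in edgeR, the called members were 19 higher and 35 lower at 12 h against control. Between 12 h and 2 h they were 19 higher and 12 lower. Of all unigenes called with these size factors 54.8% and 51.8% were higher, against 53.1% and 50.1% with TMM. Both heat comparisons share the 2 controls.

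The fitted differences were small, as the rule required. The members' median log2 fold change was -0.04 after 2 h (range -0.38 to 0.33) and -0.07 after 12 h (range -0.42 to 0.34), beside medians of 0.00 and 0.12 over all unigenes tested. The median standard error was 0.109 at 2 h and 0.107 at 12 h. In a simulation of 25828 unigenes, 100 were changed 2-fold and 100 were changed 4-fold in each comparison. At 2 h the test found 43 of the 2-fold and 74 of the 4-fold changes, and 21.5% of its calls were false. At 12 h it found 41 and 81, with 15.9% of its calls false, and between 12 h and 2 h 50 and 79, with 13.4% false. Far fewer unigenes were changed there than were called in the data (28.7% at 2 h and 52.0% at 12 h). The simulated rates depend on that number, so they do not carry over to the calls reported. They are over all unigenes, not over members.

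Among the called members the largest differences at 12 h were in c90060_g1 and c94714_g1. Unigene c90060_g1 had an N of 600.2 and 587 in control leaves, 663 and 620 at 2 h, and 788 and 743 at 12 h. Both 12 h libraries were above all others. Its log2 fold change over control was 0.34 ± 0.10 (SE) with TMM and 0.95 with library totals. It was no longer called in DESeq2, at 0.27, nor without control replicate 1, control replicate 2 or 12 h replicate 1, at 0.33, 0.31 and 0.29. Unigene c94714_g1 had an N of 1025 and 981 in control leaves, 918 and 886 at 2 h, and 762 and 773 at 12 h. Both 12 h libraries were below all others. Its log2 fold change was -0.42 ± 0.10 (SE) with TMM, and it turned to 0.20 with library totals. Both were picked for these values, which the rule had also used, so no test is given.

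Scaled to library totals, the same transcripts were higher at 12 h. The members took 4.001% and 3.94% of the reads of control leaves, 3.87% and 4.08% at 2 h, and 5.87% and 5.81% at 12 h. The groups at 0 h and 2 h overlapped and the 12 h libraries stood above both. As group means the share was 5.84% ± 0.0363 after 12 h, against 3.97% ± 0.0425 in the controls (SD, n = 2). The summed share of the other 1813 abundant unigenes moved the opposite way, with 46.1% ± 0.942 of the reads after 12 h, against 61.0% ± 0.267 in the controls. A sum can rest on the most abundant of them and does not give the direction of single unigenes. The size factor of a library over its relative total was 0.877 ± 0.00476 for control leaves, 0.896 ± 0.0451 at 2 h and 1.32 ± 0.028 at 12 h (SD, n = 2 each), so the 2 scales part at 12 h.

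In CPM, counts scaled to a common library total, the median member stood at 77.6 and 75.6 CPM in control leaves, 74.6 and 80.2 CPM at 2 h, and 115.3 and 115.0 CPM at 12 h. Each of the 385 members had both 12 h libraries above both controls and above both 2 h libraries in CPM. Among the 25828 tested unigenes 66.1% had both 12 h libraries above both controls and 62.5% above both 2 h libraries. The rule held N level, and the 12 h libraries are the ones whose CPM is raised over N. The median fold of group means was 1.46 for 12 h over control, 1.47 for 12 h over 2 h and 0.992 for 2 h over control. The highest CPM over the lowest had a median of 1.67 and ran from 1.26 to 2.05. It exceeded the 35% limit for 371 members, and 14 kept within it. With library totals in edgeR, 378 members were called at 12 h against control, all of them higher, where 64.8% of all unigenes tested were called and 52.1% were called higher. Between 12 h and 2 h, 374 were called, again all higher, where 59.7% of all were called and 47.9% were called higher.

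**Figure D2:**
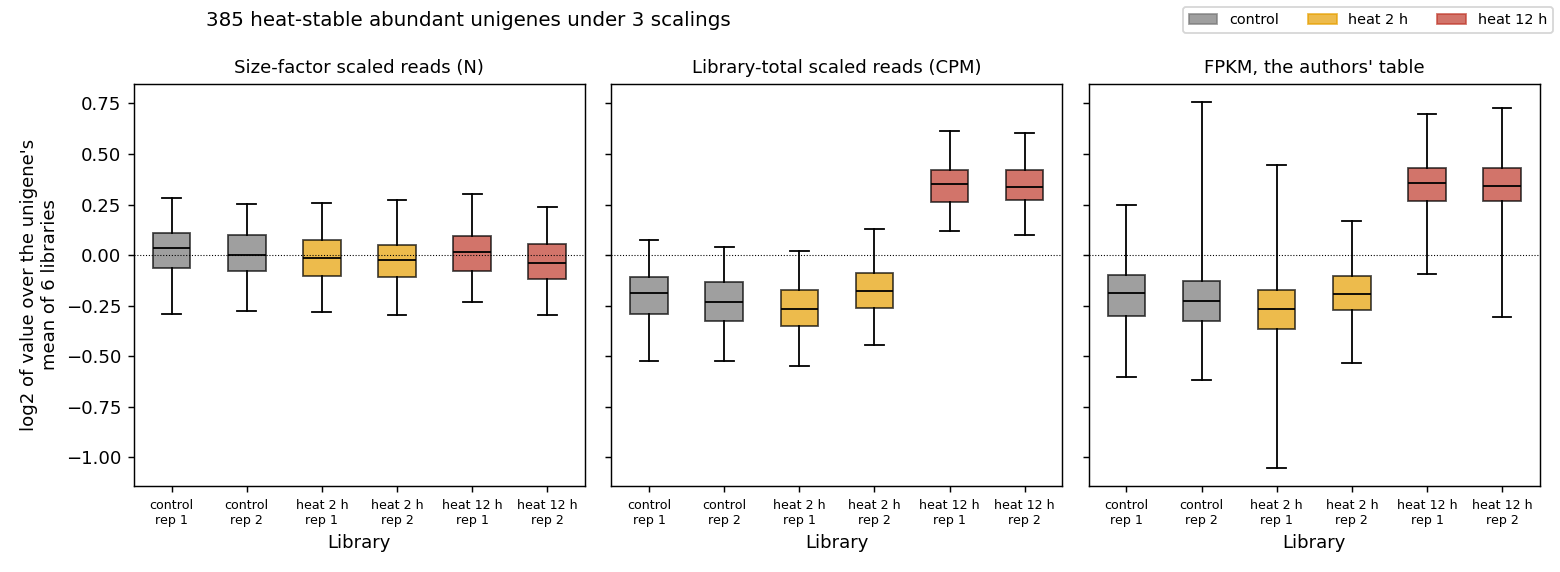
Each box shows the 385 members in 1 library, as the log2 of the value over the unigene's own mean of 6 libraries, with quartiles in the box and whiskers to the lowest and highest member. In N the 6 medians lie near 0, while in CPM and in FPKM both 12 h libraries stand above the control and 2 h libraries.

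The authors' FPKM values, reads scaled to unigene length as well as library total, gave nearly the same picture as library totals. The median member had 32.4 and 32.5 FPKM in control leaves, 31.1 and 33.1 FPKM at 2 h, and 47.8 and 46.7 FPKM at 12 h. The highest FPKM over the lowest had a median of 1.69 and exceeded the limit for 372 members, leaving 13 within it, of which 12 also kept within it in CPM. Both 12 h libraries were above both controls in FPKM for 383 members, and above both 2 h libraries for 380, against 65.0% and 62.6% of the tested unigenes. For 365 members the FPKM ratio was within 10% of the CPM ratio.

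In 4 members the FPKM ratio and the CPM ratio were over 25% apart. The largest ratio in FPKM, 3.51, belonged to c94213_g1, whose N was 452 and 501 in control leaves, 430 and 425 at 2 h, and 482 and 437 at 12 h. Its FPKM was 27.4 and 39.0 in control leaves, 11.1 and 20.5 at 2 h, and 21.7 and 18.7 at 12 h. In FPKM both heated groups lay below both controls. In N the 2 h values lay below both controls and the 12 h values overlapped them. In CPM its 12 h values, 78.7 and 73.7, lay above both controls, 50.2 and 55.3, the opposite of FPKM. The length that its reads, FPKM and the library total imply varied 2.97-fold between libraries, against a median of 1.02-fold over the members. The next was c93937_g1, with a ratio of 2.75 in FPKM and 1.301 in N, and 98.5 and 100.5 FPKM after 12 h, against 45.3 and 41.5 FPKM in the controls. The sources used here do not say how the authors set the length per library.

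Members differed in how far library totals moved them. The smallest ratio in CPM, 1.26, was that of c84853_g1, with 145 and 137 CPM after 12 h, against 122 and 115 CPM in the controls. Its N was 885 and 814 after 12 h, against 1095 and 1041 in the controls, so 12 h was the higher in CPM and the lower in N. Member c95368_g1 followed with a ratio of 1.27, at 164 and 163 CPM after 12 h, against 140 and 130 CPM in the controls. In N it had 1005 and 965 after 12 h, against 1259 and 1179 in the controls. At the other end c90112_g1 had 123 and 130 CPM after 12 h, against 73.2 and 63.5 CPM in the controls, a ratio of 2.05. Its N was 753 and 772 after 12 h, against 659 and 576 in the controls. Member c95208_g1 had a ratio of 2.02, with 105 and 108 CPM after 12 h, against 59.9 and 53.2 CPM in the controls. In both of these the 12 h libraries were above the controls on either scale.

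**Figure D3:**
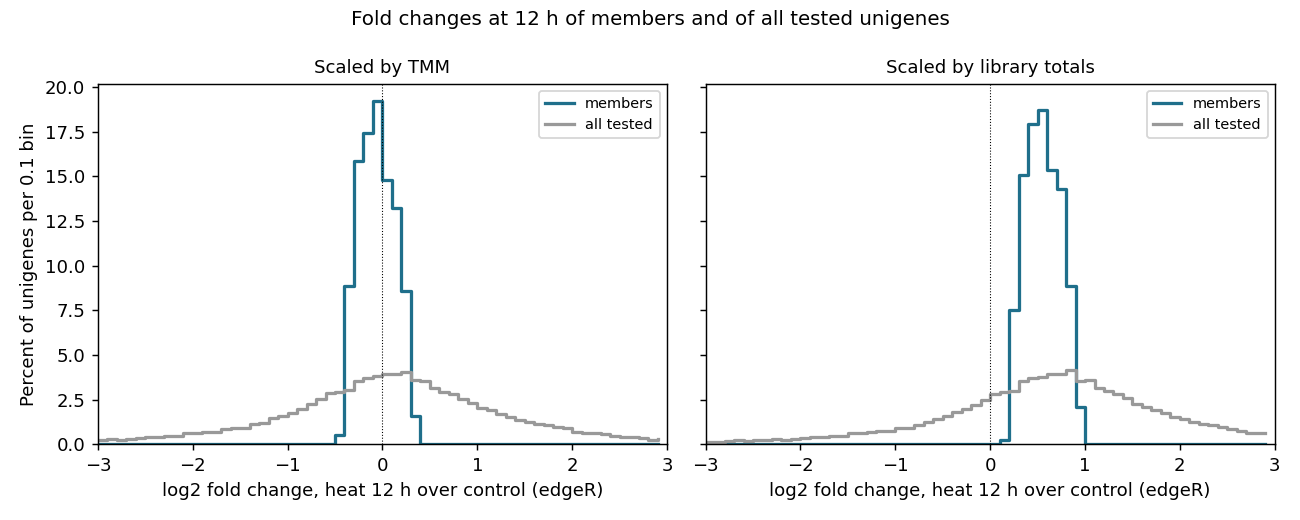
Percent of unigenes per bin of 0.1 in log2 fold change at 12 h over control, for the 385 members and all 25828 tested unigenes, with TMM scaling on the left and library totals on the right. The members form a narrow peak whose median is -0.07 with TMM and 0.55 with library totals, beside medians of 0.12 and 0.73 over all tested.

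Choosing level unigenes by library totals gave another set. With the same floor and ratio on counts scaled to the mean library total, 239 unigenes passed, and 14 of them were members, 5.86% of that set and 3.64% of the members. On the N scale the median unigene of that set stood at 0.683 times its control level after 12 h, with log2 values from -0.96 to -0.21. Its most abundant unigene that is no member, c90067_g1, had 1725 and 1619 CPM after 12 h, against 1695 and 1655 CPM in the controls. In N it had 10555 and 9609 after 12 h, against 15256 and 15012 in the controls. The second, c78661_g1, had 762 and 757 CPM after 12 h, against 641 and 643 CPM in the controls, and 4665 and 4493 in N, against 5767 and 5829. In FPKM, 182 of the abundant unigenes kept within the ratio, and 13 of them were members, 7.14% of these and 3.38% of the members. With TMM the rule took 372 unigenes, of which 354 were members, 95.2% of that set and 91.9% of the members.

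The ratios between members do not depend on any library scale. The log2 ratio of a member to the other members had a standard deviation over the 6 libraries that averaged 0.166 for the median member, from 0.124 to 0.220. As a share of the summed member reads, the standard deviation of the log2 value was 0.123 at the median and at most 0.196. By both measures c95407_g1 varied least. The rule kept every member within its ratio limit in these same libraries, which bounded both measures beforehand. They describe the set and are no separate evidence of steadiness.

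Length was not used to choose the members. The length implied by reads, FPKM and library total had a median of 2505 bases in the members (quartiles 1723 and 3525) and 1820 bases in the 1813 abundant unigenes above the ratio limit (quartiles 1168 and 2714). The share of abundant unigenes that were members was 7.63% under 1000 bases (27 of 354), 13.8% from 1000 to 2000 (112 of 812) and 20.9% from 2000 to 3000 (110 of 526). It was 21.5% from 3000 to 4000 (60 of 279) and 33.5% at 4000 or more (76 of 227). The median of mean N in these length classes ran from 896 to 1167. Within the class of lowest N from 400 to 800 the median length was 2496 bases in members and 1815 in non-members, and from 800 to 1600 it was 2668 and 1919. Among the 79 unigenes with a lowest N of 3200 or more the order was the reverse, with 977 bases for the 5 members and 1285 for the others. Across the 2198 abundant unigenes the Spearman correlation of the N ratio with length was -0.264. This is a description over unigenes that share libraries, with no test, and a length implied here is that of an assembled unigene, which may be incomplete.

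**Figure D4:**
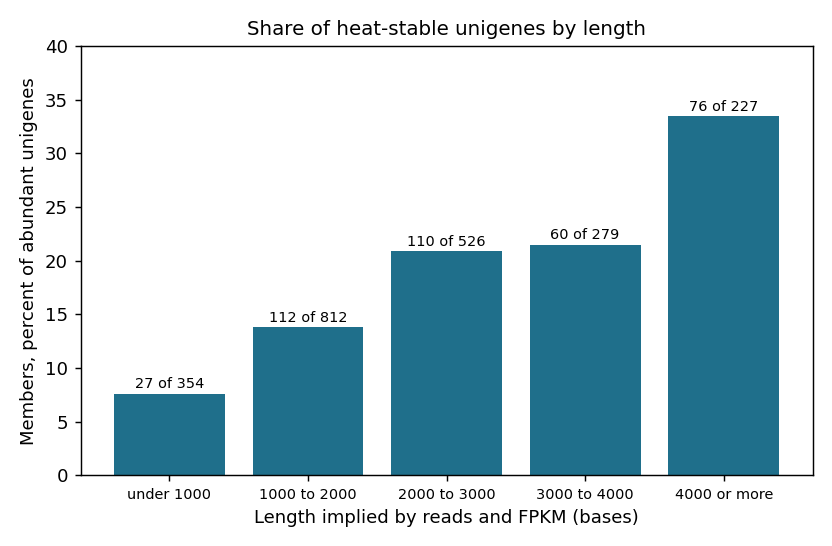
Bars give the members as a percentage of the abundant unigenes in each class of implied length, with the counts above them. The percentage is 7.63% under 1000 bases and 33.5% at 4000 bases or more.

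Per length the members were of moderate level. Their mean FPKM was 7.07 at the lowest, 37.4 at the median and 1770 at the highest, which again belonged to c69435_g2, and the median over abundant non-members was 82.0 FPKM. Within the class of lowest N from 400 to 800 the medians were 31.5 FPKM for members and 60.6 FPKM for non-members. At a like lowest N the wider ratio of non-members raises their mean, and their shorter length raises FPKM. The difference is therefore partly set by the rule and by the length described above. Only 28 members were among the 1000 unigenes with the highest mean FPKM.

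Most members stood alone in the assembly. Unigenes whose IDs share their first part (c69435, for example) are called a component here, and they may share reads. The 385 members came from 381 components, and 270 (70.1%) were the only unigene of theirs, against 65.9% of abundant non-members. In 4 components 2 unigenes were members. N ran from 736 to 835 for c88705_g1 and from 404 to 504 for c88705_g2, and in each both 12 h libraries were above both controls. In another pair, c94064_g2 had 627 and 613 after 12 h, against 794 and 712 in the controls. Its partner c94064_g1 had 474 and 427 after 12 h, against 466 and 428 in the controls, so the groups overlapped in 1 and not in the other. Few members had a count with decimals: 11 of them (2.86%), against 3.36% of abundant non-members. How the counts were formed is not given, so whether reads had been split between features cannot be told from this.

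The other unigenes of the members' components were not kept level by the rule. They numbered 154, of which 106 passed the filter on low counts and 14 reached the floor of 400 in N. After 2 h 35 of the 106 were called by edgeR, after 12 h 55, and between 12 h and 2 h 42. These are 33.0%, 51.9% and 39.6%, beside 28.7%, 52.0% and 45.7% of all unigenes tested. Their counts in these comparisons were thus near the background or a little away from it on either side, and a difference from it was not tested.

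Among the 106, the largest fall at 12 h was in the component of the most abundant member. Unigene c69435_g1 had an N of 3806 and 3841 in control leaves, 2389 and 2304 at 2 h, and 425 and 311 at 12 h. The groups did not overlap, and its log2 fold change over control was -0.71 ± 0.13 at 2 h (SE, Benjamini-Hochberg adjusted p = 0.00187 in edgeR) and -3.41 ± 0.15 at 12 h (SE, adjusted p = 2.74e-09 in edgeR). The member c69435_g2, held level by the rule, had log2 values of 0.12 ± 0.12 at 2 h and -0.06 ± 0.12 at 12 h (SE). The remaining unigene of this component had 6490 and 5483 after 12 h, against 12594 and 13050 in the controls, below them in both libraries. The largest rise among the 106 was that of c89855_g2, which had 1 read in each control, 1 and 0 reads at 2 h, and 25 and 31 reads at 12 h. Per library total this is a ratio of 24.5 for 12 h over control, and its exact 95% binomial interval runs from 6.48 to 207. With TMM, which lowers the 12 h values beside library totals, its log2 fold change was 3.87 ± 0.74 (SE, adjusted p = 0.000855 in edgeR). The member of its component, c89855_g4, had an N of 693 and 640 after 12 h, against 660 and 682 in the controls.

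**Figure D5:**
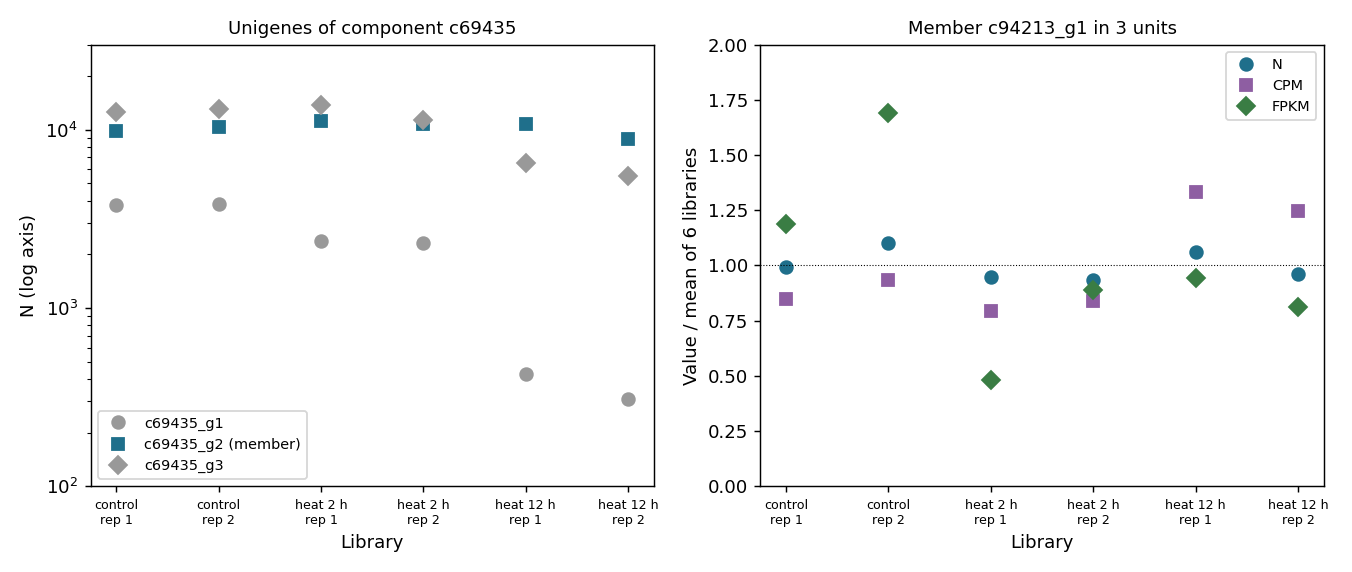
Left, N per library on a log axis for the 3 unigenes of component c69435, where the member stays between 8914 and 11253 while c69435_g1 is at 425 and 311 at 12 h. Right, N, CPM and FPKM of member c94213_g1, each over its own mean of 6 libraries, with FPKM spread 3.51-fold and N 1.1804-fold.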

How the data were processed

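The authors deposited estimated counts per unigene, unscaled (99.3% of the values above 0 are whole), and FPKM values, scaled by them to length and total. DESeq 1.18.0, HTSeq 0.6.1, TopHat2 2.0.12 and Bowtie2 2.2.3 are listed, per the submitters' processing notes. The sources used here give neither their roles nor the assembly or strandedness. Columns were matched to samples by label.

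Unrounded counts gave N. Counts rounded to whole numbers were tested with edgeR 4.0.16 in R 4.3.3 (filterByExpr, TMM, robust glmQLFit over all 6 libraries with 3 residual degrees of freedom, Benjamini-Hochberg over 25828 unigenes, threshold 0.05). The planned test was for whole counts. Each SE is the fold change over the square root of F. Alternatives were DESeq2 1.42.0 and limma 3.58.1 on log2(FPKM + 1) and log2(FPKM + 0.1), other scalings, no filter, a replicate block and each library left out. Upper quartiles were taken over the 18038 rows behind the size factors. The edgeR fit was tested on simulated data with 25828 unigenes. Members and lists were chosen with earlier results of these data known. Unigenes were named by rule: highest mean N, smallest and largest ratios, nearest to each limit, and largest called differences at 12 h, with 1 each way among component neighbours because IDs lack names. A few others (c89855_g4 and the pairs of c88705 and c94064) were chosen after their values were seen. Counting errors and intervals cover counting only. Gene lists could not be used.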

Additional observations from a re-analysis of the deposited data

Results flagged for a closer look

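The members named by rule and the component neighbours with the largest rise and fall at 12 h were checked for a difference between the heated groups. By edgeR's quasi-likelihood test of 12 h over 2 h the fitted effect differed for 5 of them. Other named unigenes were not part of this check. Among members, c84853_g1 had a log2 difference of -0.36 and c95368_g1 one of -0.32, both lower at 12 h in each library in N. In CPM both were higher at 12 h: c84853_g1 had 145 and 137 CPM at 12 h, against 118 and 122 CPM at 2 h, and c95368_g1 had 164 and 163 CPM at 12 h, against 130 and 144 CPM at 2 h. Member c95208_g1 had a difference of 0.35, higher at 12 h in each library in N and in CPM. They had been named for the smallest and the largest spread under library totals, which follows the 12 h level, and the rule used the same libraries, so passing the threshold is no independent evidence and no p is given. Of the component neighbours, c69435_g1 had a difference of -2.70 (edgeR adjusted p = 2.51e-08) and c89855_g2 one of 4.70 (edgeR adjusted p = 0.000606), the second resting on 1 read at 2 h. The remaining unigene of c69435, c69435_g3, was outside the check and also passed, at -1.10 (edgeR adjusted p = 2.1e-05). Groups of 2 libraries are too small to look for a single library far from the others.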

How the results depend on the processing

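The number of members was 239 with library totals, 182 with the FPKM ratio, 194 and 647 at ratio limits of 25% and 50% above the lowest, and 762 and 121 at floors of 200 and 800. It stayed within 1.5 times with TMM (372), upper quartiles (367) and size factors from rows with 1 or more reads (351), and was 431 to 456 with a library left out. Their median ratio was 1.67 with library totals, 1.69 in FPKM, and 1.23 to 1.24 with a library left out.

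Members called, given for 2 h against control, 12 h against control and 12 h against 2 h, were 26, 63 and 30 as reported. With library totals they were 24, 378 and 374, without a filter 9, 32 and 30, and with DESeq2 0, 36 and 10. At an unadjusted p below 0.05 DESeq2 gave 26 members for 2 h against control and edgeR 67. With limma on log2(FPKM + 1) they were 0 (62 unadjusted), 287 and 302, and on log2(FPKM + 0.1) 3, 289 and 304. Calls over all unigenes tested moved too. In the same order they were 7425, 13422 and 11809 of 25828 as reported, and 7232, 16746 and 15416 of 25828 with library totals. They were 7762, 14195 and 12127 of 88871 without a filter, and 5258, 10463 and 8759 of 25828 with DESeq2. With limma they were 4058, 17730 and 15058 of 67644 at the larger pseudocount and 5458, 18035 and 15194 at the smaller. All members called at 12 h against control were higher with library totals and both limma fits and lower with DESeq2. Without a filter 93.8% of them were higher and with size factors in edgeR 35.2%, against 19.0% as reported. Over all unigenes called in this comparison, 53.1% were higher as reported, 57.9% without a filter and 54.8% with size factors in edgeR. That share was 46.8% with DESeq2, 80.4% with library totals, and 81.1% and 80.6% with limma at the larger and smaller pseudocount. With each library left out the counts were 0 to 30, 9 to 61 and 5 to 17, where a lone library is assumed to vary like the other groups. The 0 at 2 h came without either control replicate and without 2 h replicate 2.

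The median log2 fold change of the members at 12 h against control was 0.55 with library totals, 0.034 without a filter, -0.14 with DESeq2, and 0.53 and 0.54 with limma at the larger and smaller pseudocount. At 12 h against 2 h it was 0.56, 0.075, 0.56 and 0.57 with library totals, no filter and these limma fits. With a library left out it ran from -0.04 to -0.01 for 2 h against control, from -0.09 to -0.04 for 12 h against control and from -0.07 to 0.01 for 12 h against 2 h. Unigenes called at 2 h against control numbered 4058 with limma on log2(FPKM + 1), and with a library left out 4230 (without control replicate 1) to 7877. At 12 h against control they were 10017 to 13817 and at 12 h against 2 h 9198 to 11390. The share called higher among them at 12 h against control was 80.4% with library totals against 53.1%.

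The fall of c94714_g1 at 12 h turned to 0.20 with library totals and to 0.19 and 0.20 with limma at the larger and smaller pseudocount. The cause of the other shifts was not tested.

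With the replicate number as a replicate block, the members called were 31, 71 and 42. Over all unigenes the block gave 8683, 14496 and 12928 calls, against 7425, 13422 and 11809 without it. Deviations of same-numbered libraries from their group means correlated at 0.00783, 0.0353 and 0.285 for control and 2 h, control and 12 h, and 2 h and 12 h. The largest, 0.285, was between the heated groups. The labels do not say whether same-numbered libraries belong together, so a pairing was neither established nor excluded.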
